A study of Homo sapiens with 8 samples.

Results

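The 3 RUNX genes and CBFB were examined in CUT&Tag peak lists of H3K23su and H3K27ac from HCT15 colon cancer cells. The 4 genes were taken by name out of 20136 protein-coding genes of the annotation, and each was described over its annotated gene body and 250 kb on either side, with every annotated start site treated separately. These windows held 264 of the 122500 H3K23su regions and 288 of the 133786 H3K27ac regions, a region being a stretch covered by peaks of any of the 4 libraries of a mark. CUT&Tag directs a transposase with an antibody, and the fragments it releases come from near the modified histone. The parental line, HCT15-Pa, carries the label DMSO, and the line resistant to 5-fluorouracil (5-FU), HCT15-FR, the label 20 μg/mL 5-FU. According to the study's methods, HCT15-FR cells were grown in the drug and then moved for some days to medium without it. Each line gave 2 libraries per mark, 8 in all. The comparison is of 1 resistant line with its parent, so resistance and any other difference between these lines cannot be told apart, and the labels do not say whether replicates were separate cultures, so that p values measure the spread between these libraries.

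RUNX1, RUNX2 and RUNX3 encode transcription factors that share the Runt domain, through which they bind DNA and pair with CBFB. CBFB does not touch DNA itself and raises the affinity and stability of its RUNX partner. Each RUNX gene has a distal promoter, P1, and a proximal promoter, P2, which give proteins with different amino termini. RUNX1 is known for blood formation, RUNX2 for bone and RUNX3 for lymphocytes and sensory neurons, and silencing of RUNX3 P2 by DNA methylation is a familiar event in cancers of the gut. H3K27ac marks active promoters and enhancers, and H3K23su is a succinyl mark on the same histone.

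In hg19, RUNX1 (ENSG00000159216) lies on the minus strand at chr21:36160098-37376965. Its body spans 1217 kb because 1 coding transcript starts far upstream, at −955.4 kb from P1. RUNX2 (ENSG00000124813) lies on the plus strand at chr6:45295894-45632086, RUNX3 (ENSG00000020633) on the minus strand at chr1:25226002-25291612 and CBFB (ENSG00000067955) on the plus strand at chr16:67062887-67134961. P1 and P2 were told apart by the protein their transcripts encode. P2 begins 160.6 kb downstream of P1 in RUNX1, 93.3 kb in RUNX2 and 34.7 kb in RUNX3, and CBFB has 1 main start. The windows around RUNX1, RUNX2, RUNX3 and CBFB also reach 9, 2, 2 and 27 other protein-coding genes, so that values of a window are not values of the member alone. The lists contained 65364 to 68365 H3K23su peaks and 70600 to 76676 H3K27ac peaks per library. The HCT15-FR lists covered more of the genome, 40.04 and 39.38 Mb against 33.53 and 33.01 Mb for H3K23su and 46.32 and 46.63 Mb against 39.53 and 38.81 Mb for H3K27ac. Since the lists contain no read counts, a missing peak means that none was called at the authors' threshold. Of 12 colon and epithelial marker genes, 9 had an H3K23su peak within 1 kb of a start site in all 4 libraries and 10 had an H3K27ac peak there. Of 6 blood marker genes, 0 had such a peak in all 4 libraries in either mark, and neither had the 2 endothelial genes found in the annotation. Of 3 fibroblast genes, 0 had one for H3K23su and 1 for H3K27ac.

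The bases before the start sites are shown first, because peaks separated the promoters of these genes sharply. The sequence is from hg19, 150 bases before the most upstream start of each promoter, read in the direction of transcription. Capitals mark exact matches on either strand to the RUNX core (AACCACA, reverse complement TGTGGTT) or the AP-1 core (TGACTCA or TGAGTCA). The bases before RUNX2 P2 overlap an annotated exon and are not shown.
RUNX1 P1 (chr21:36421642-36421791, minus strand): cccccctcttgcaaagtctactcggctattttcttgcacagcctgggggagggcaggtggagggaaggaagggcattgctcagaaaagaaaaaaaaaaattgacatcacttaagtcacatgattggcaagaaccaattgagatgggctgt
RUNX1 P2 (chr21:36260988-36261137, minus strand): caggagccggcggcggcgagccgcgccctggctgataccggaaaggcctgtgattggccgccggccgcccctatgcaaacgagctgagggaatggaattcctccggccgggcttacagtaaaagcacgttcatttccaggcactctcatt
RUNX2 P1 (chr6:45295744-45295893, plus strand): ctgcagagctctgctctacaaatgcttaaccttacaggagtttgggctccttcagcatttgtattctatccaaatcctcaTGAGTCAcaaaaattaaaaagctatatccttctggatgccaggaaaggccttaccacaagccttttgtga
RUNX3 P1 (chr1:25291613-25291762, minus strand): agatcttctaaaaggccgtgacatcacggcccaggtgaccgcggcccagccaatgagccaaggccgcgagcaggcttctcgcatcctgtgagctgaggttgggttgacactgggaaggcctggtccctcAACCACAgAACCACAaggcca
RUNX3 P2 (chr1:25256768-25256917, minus strand): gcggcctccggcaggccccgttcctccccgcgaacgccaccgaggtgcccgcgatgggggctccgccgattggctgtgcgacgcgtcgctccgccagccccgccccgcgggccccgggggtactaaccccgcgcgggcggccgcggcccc
CBFB start (chr16:67062737-67062886, plus strand): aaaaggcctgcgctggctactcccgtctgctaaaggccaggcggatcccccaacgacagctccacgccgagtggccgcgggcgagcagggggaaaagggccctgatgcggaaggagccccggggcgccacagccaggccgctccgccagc
RUNX3 P1 carried 2 RUNX cores next to each other, and 0.0465% of 146306 start sites of protein-coding genes had 2 or more in the same stretch, against 1.97% with at least 1. The AP-1 core stood before RUNX2 P1, as before 2.12% of all these start sites. The other promoters shown had no exact match in this window. Within 500 bp of the start, P2 was richer in CpG than P1 in each RUNX gene, with 108 against 17 CpG in RUNX1, 90 against 5 in RUNX2 and 136 against 39 in RUNX3. The CBFB start had 110, and the median over start sites of protein-coding genes was 40.

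At the promoters, both marks were found in all libraries at RUNX1 P2, RUNX2 P2 and the CBFB start, and within 1 kb of RUNX2 P1, RUNX3 P1 and RUNX3 P2 no library of either mark had a peak. The CpG-rich RUNX3 P2 promoter was therefore without a called peak in both lines, unlike RUNX1 P2, RUNX2 P2 and the CBFB start. RUNX1 P1 had 1 weak H3K23su peak, in HCT15-FR replicate 1, with a score at the 10.9 percentile of its list, and no H3K27ac peak. A score is −log10 of the p value that MACS2 gave a peak, and its percentile is the rank within its own list. All 4 libraries of both marks did have a peak about 2 kb upstream of RUNX1 P1, so that RUNX1 P1 counted as marked in 4 libraries when the window was widened to 2 kb. The same widening left RUNX3 P2 and RUNX2 P1 without a peak and gave RUNX3 P1 an H3K23su peak in 1 library. Counted by gene over any start site, 3 of the 4 members were marked in all 4 libraries in each mark, and the share among all protein-coding genes was 57.6% for H3K23su and 62.1% for H3K27ac.

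**Figure D1:**
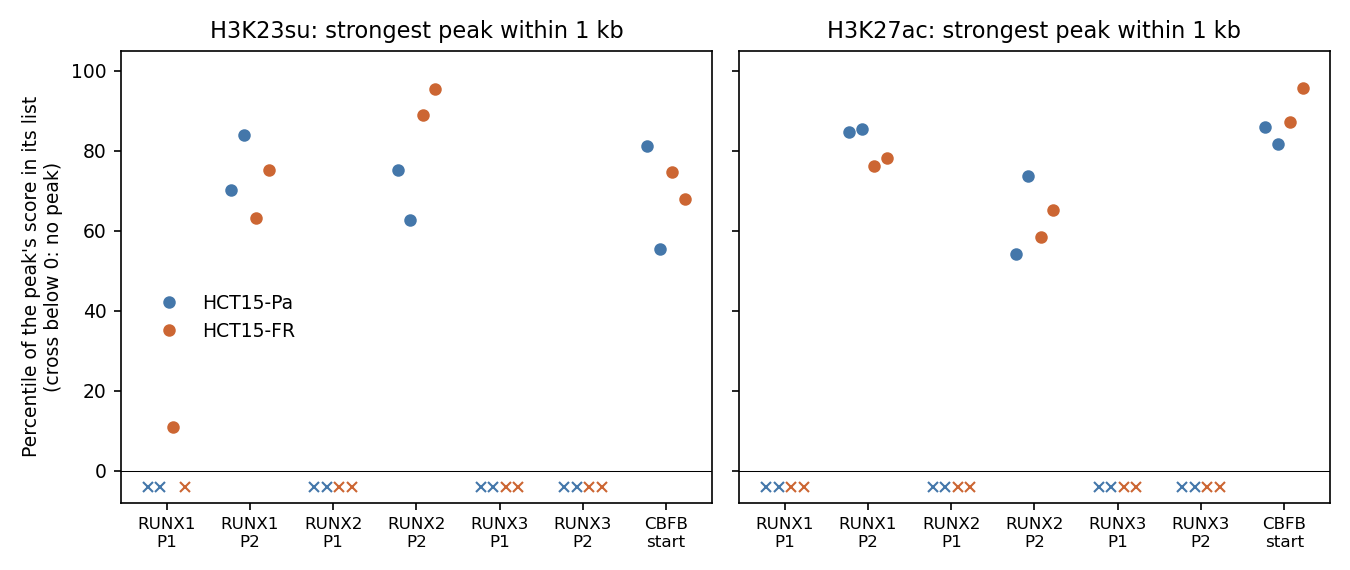
Percentile of the strongest peak within 1 kb of each promoter, within the score list of its own library (vertical axis), for H3K23su (left) and H3K27ac (right). Each point is 1 library, blue for HCT15-Pa and orange for HCT15-FR, and crosses under 0 stand for libraries without a peak; RUNX2 P1 and both RUNX3 promoters show crosses only.

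RUNX2 P2 was the promoter at which the H3K23su ranks of the lines parted. Its peak scored 5.29 and 4.75 in HCT15-Pa and 7.40 and 9.14 in HCT15-FR, which are percentiles of 75.3 and 62.6 against 88.9 and 95.4. Both HCT15-FR libraries ranked above both HCT15-Pa libraries. The same order was seen in 25.4% of the H3K23su regions present in all 4 libraries, and the reverse order in 18.5%. The H3K27ac percentiles at RUNX2 P2 were 54.1 and 73.8 in HCT15-Pa and 58.5 and 65.2 in HCT15-FR, and the lines overlapped. These peaks lay mostly downstream of the start, and with a window that ended 100 bp downstream 2 libraries of each mark had a peak at RUNX2 P2. At the CBFB start, H3K23su peaks covered 698 and 425 bp in HCT15-Pa and 1318 and 1557 bp in HCT15-FR, while their percentiles overlapped (81.1 and 55.5 against 74.8 and 67.9). Peaks were wider over the whole HCT15-FR H3K23su lists, with mean widths of 586 and 581 bp against 507 and 505 bp in HCT15-Pa. H3K27ac at the CBFB start ranked at 86.0 and 81.7 in HCT15-Pa and at 87.2 and 95.7 in HCT15-FR. Both HCT15-FR libraries thus ranked above both HCT15-Pa libraries, as in 26.4% of shared H3K27ac regions. At RUNX1 P2 the order for H3K27ac went the other way, with 84.8 and 85.5 in HCT15-Pa and 76.2 and 78.1 in HCT15-FR, an order that 25.5% of shared H3K27ac regions had. The H3K23su percentiles there, 70.1 and 84.0 against 63.1 and 75.3, overlapped.

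Over whole windows, the length under H3K23su peaks was greater in both HCT15-FR libraries than in both HCT15-Pa libraries at all 4 loci, which also held for 67.3% of the 19085 gene windows tested, and the HCT15-FR lists were longer as a whole. The test was made on the share, the covered length of a window divided by the covered length of its library, with limma across all gene windows. The share of all 4 loci for H3K23su was also higher in both HCT15-FR libraries, as in 35.9% of windows, but no member passed the test. Of all windows, 7.59% passed as higher and 8.79% as lower in HCT15-FR. For H3K27ac, both HCT15-FR libraries covered more at all 4 loci, as in 67.1% of 19341 windows, and their share was higher at RUNX2 and RUNX3, as in 30.3% of windows. RUNX3 was the 1 member that passed for H3K27ac, where 9.29% of windows passed as higher and 11.8% as lower. Without division by the covered length of the library, 7933 windows passed as higher and 847 as lower for H3K23su (1449 and 1677 with it) and 7658 and 1065 for H3K27ac (1796 and 2273 with it). The median change over all windows then moved to 0.28 on the log2 scale for H3K23su and to 0.22 for H3K27ac, and the members' changes are given below relative to the library's covered length. With 2 libraries against 2, the smallest p of a two-sided exact permutation test is 0.333, its value wherever the lines did not overlap.

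**Figure D2:**
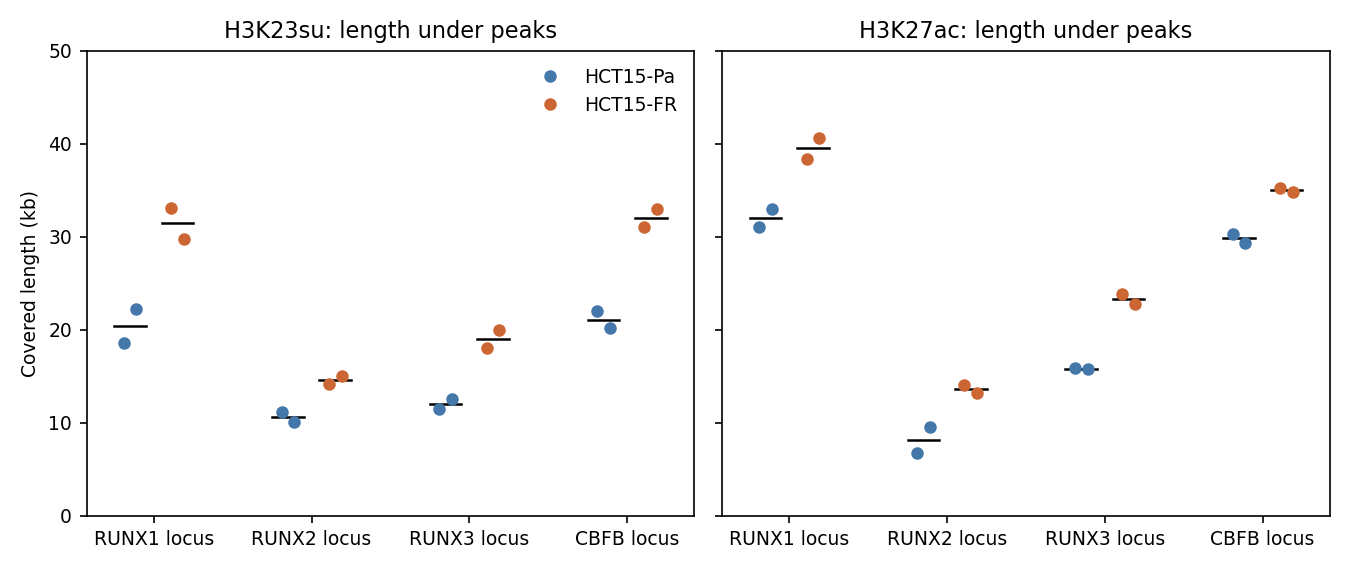
Length under peaks (kb, vertical axis) in the window of each member, for H3K23su (left) and H3K27ac (right). Points are single libraries, blue for HCT15-Pa and orange for HCT15-FR, and the bar is the mean of 2; both orange points lie above both blue points in each of the 8 pairs.

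**Figure D3:**
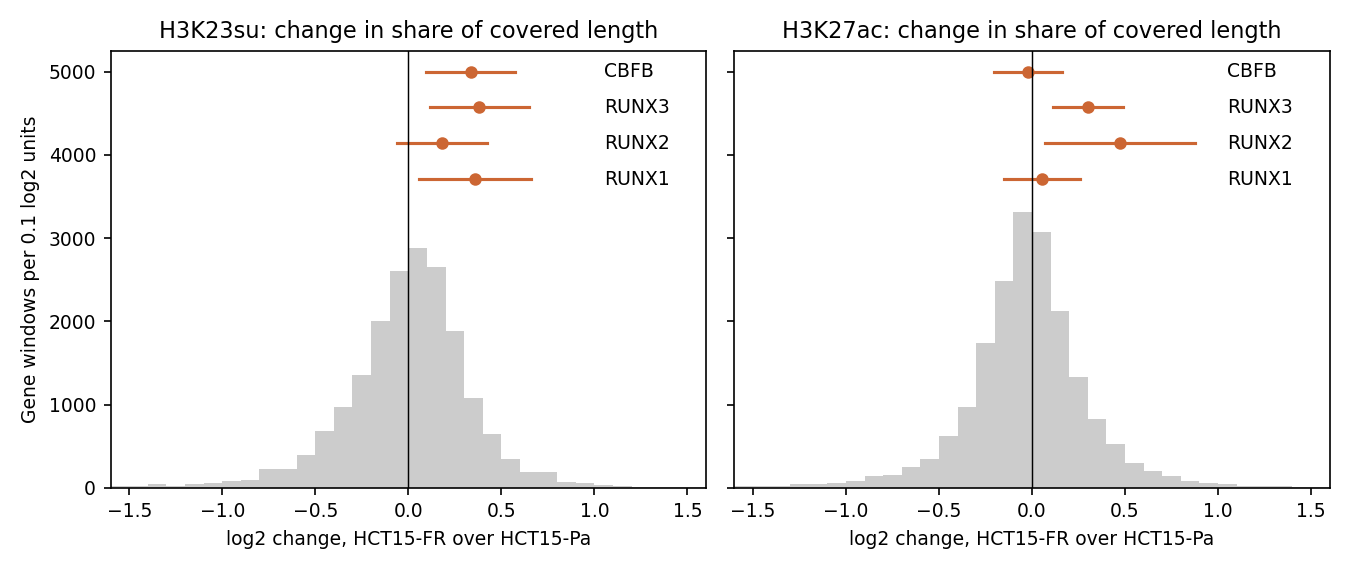
Change in the share of covered length, HCT15-FR over HCT15-Pa, on the log2 scale (horizontal axis), for H3K23su (left) and H3K27ac (right). Grey bars count all gene windows per 0.1 log2 units (vertical axis) and orange points are the members with 95% intervals from limma, drawn above the bars at heights without meaning; the interval of RUNX2 for H3K23su and those of RUNX1 and CBFB for H3K27ac include 0.

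At RUNX1, H3K23su peaks covered 18.6 and 22.3 kb in HCT15-Pa and 33.1 and 29.8 kb in HCT15-FR (means 20.4 ± 2.59 and 31.4 ± 2.37 kb, SD, n = 2). The log2 change in share was 0.36 (SE 0.12, limma adjusted p = 0.1003), at the 89.3 percentile of all windows. H3K27ac covered 31.1 and 32.9 kb in HCT15-Pa and 38.4 and 40.6 kb in HCT15-FR. Its share was 786 and 849 bp per Mb of covered length in HCT15-Pa and 829 and 871 in HCT15-FR, which overlapped, and the log2 change was 0.05 (95% interval −0.15 to 0.26, limma adjusted p = 0.690). From P1 to the gene's end alone, H3K27ac covered 12.7 ± 0.260 kb in HCT15-Pa and 17.8 ± 0.0990 kb in HCT15-FR (SD, n = 2). The share of that stretch was 325 and 322 bp per Mb of covered length in HCT15-Pa and 382 and 383 in HCT15-FR. That stretch alone was not fitted with limma or set beside the other genes. The share of the whole gene body changed by 0.05 on the log2 scale for H3K27ac (limma adjusted p = 0.841). For H3K23su the change of the body was 0.30 (limma adjusted p = 0.4075), and neither passed the test. A window counted from P1 instead of the far upstream start, 250 kb flanks kept, gave a log2 change in H3K27ac share of 0.11 (limma adjusted p = 0.366). Peaks inside RUNX1 were densest between P2 and the end of the gene, as the map of the locus shows, and few lay in the long stretch next to the far upstream start.

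Regions called in both libraries of a single line were counted next, and such a call depends on the peak threshold. FR-only stands for a region with a peak in the 2 resistant libraries and none in the parental ones, Pa-only for the opposite, and shared for a peak in all 4. For H3K23su, 31 of the 264 regions of the 4 loci were FR-only, 11.7% against 7.95% of all H3K23su regions, and 8 were Pa-only, 3.03% against 5.01%. Another 68 were shared, 25.8% against 23.9%, and 114 were found in 1 library only. For H3K27ac, 26 of 288 regions were FR-only, 9.03% against 9.08%, 9 were Pa-only, 3.12% against 4.53%, and 84 were shared, 29.2% against 25.2%. The FR-only share of the loci for H3K27ac was thus close to the background, and regions are not replicates, so no test was made of these shares. Among the 68 shared H3K23su regions, both HCT15-FR percentiles were above both HCT15-Pa percentiles in 28 (41.2%) and below in 9 (13.2%), where all shared H3K23su regions had 25.4% and 18.5%. Among the 84 shared H3K27ac regions these counts were 27 (32.1%) and 18 (21.4%), where all shared H3K27ac regions had 26.4% and 25.5%.

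**Figure D4:**
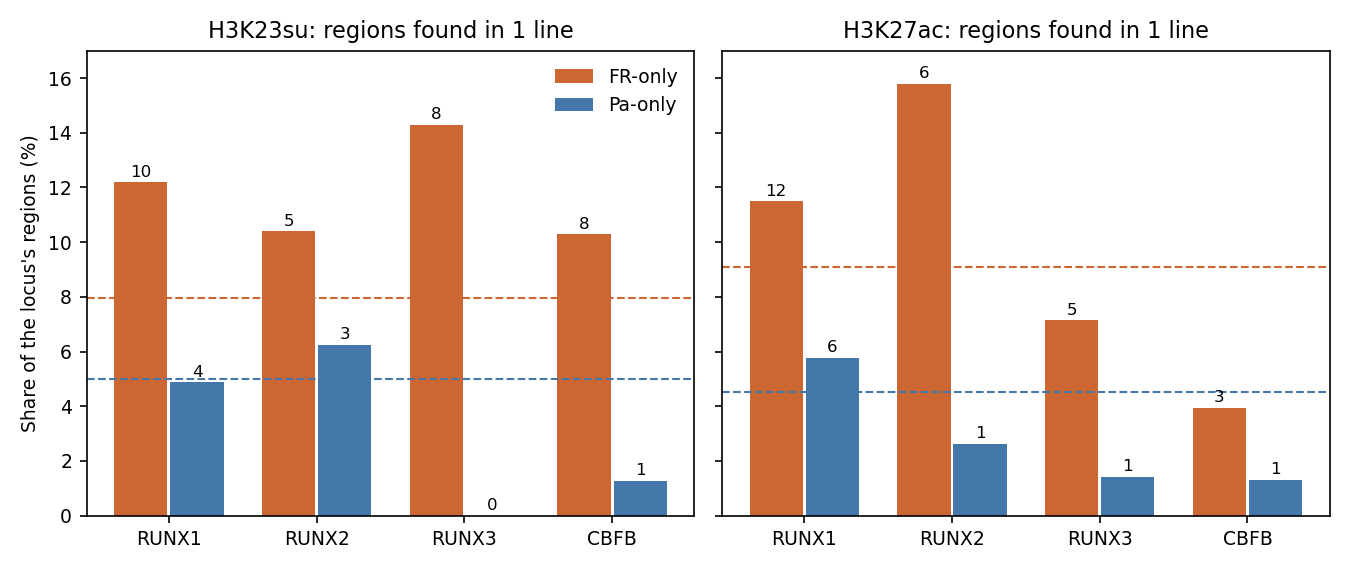
Share of each locus's regions (%, vertical axis) that were FR-only (orange) or Pa-only (blue), for H3K23su (left) and H3K27ac (right), with the number of regions above each bar. Dashed lines give the share among all regions of the mark, 7.95% and 5.01% for H3K23su and 9.08% and 4.53% for H3K27ac; RUNX3 had 8 FR-only and 0 Pa-only H3K23su regions.

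RUNX1 had 10 FR-only and 4 Pa-only among 82 H3K23su regions and 12 FR-only and 6 Pa-only among 104 H3K27ac regions. The FR-only H3K23su regions with the highest ranks of their weaker peak lay in introns at 235.5, 227.0 and 34.6 kb downstream of P1. The first, chr21:36185806-36186324, had percentiles of 58.6 and 72.7 in the HCT15-FR libraries. The second, chr21:36194390-36194900, was at 44.3 and 73.6, and an H3K27ac region over it was FR-only as well, at 75.4 and 79.2. The last of these, chr21:36386649-36387244, was FR-only in H3K27ac too. In all, 5 of the 10 sites of RUNX1 that were FR-only in H3K23su were so in H3K27ac too, as were 35.8% genome-wide. The highest ranked FR-only H3K27ac region lay in an intron at −228.6 kb from P1, chr21:36649783-36650587, with percentiles of 85.5 and 79.8, and it also overlapped an FR-only H3K23su region. A further FR-only H3K27ac region at chr21:36250721-36251405, 8417 bp from the nearest RUNX1 start, had no H3K23su region over it.

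An internal start of a noncoding RUNX1 transcript, 189.7 kb downstream of P1, was the 1 start site of the 4 genes with a peak in both libraries of one line and none of the other. H3K23su peaks lay within 1 kb of it in HCT15-FR, with scores of 4.37 and 3.63 (percentiles 44.1 and 15.4), and not in HCT15-Pa. H3K27ac had a peak there in HCT15-FR replicate 1 only, at the 38.7 percentile. These are low ranks.

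RUNX1 also had regions found in the parental line alone. The 3 best ranked Pa-only H3K23su regions were intronic, 171.7, 122.2 and 221.4 kb downstream of P1, with weaker percentiles of 36.4, 33.4 and 21.4. For H3K27ac the best ranked was intronic at chr21:37104737-37105671, at −683.6 kb from P1, with percentiles of 66.8 and 80.5. A second was intronic at −183.4 kb, and another lay 8557 bp from the nearest start site of CBR3, a carbonyl reductase gene. The widest shared H3K23su region of the locus, chr21:36216660-36218603, was intronic and covered 599 and 292 bp in HCT15-Pa against 1262 and 1606 bp in HCT15-FR. The H3K27ac region over it, chr21:36217035-36219362, covered 1053 and 1186 bp against 2104 and 2287 bp. In both marks this region was thus longer in both HCT15-FR libraries, but peaks were wider over the whole HCT15-FR lists. Mean peak width was 586 and 581 bp against 507 and 505 bp in HCT15-Pa for H3K23su. For H3K27ac it was 627 and 608 bp against 550.5 and 549.7 bp.

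At RUNX2, H3K23su peaks covered 11.2 and 10.1 kb in HCT15-Pa and 14.1 and 15.0 kb in HCT15-FR, with 22 and 26 peaks against 28 and 28. The log2 change in share was 0.18 (95% interval −0.06 to 0.43, limma adjusted p = 0.256). Within the gene body alone the lengths were 8.69 and 7.19 kb against 12.2 and 12.8 kb, whereas the upstream flank went the other way, 1.33 ± 0.271 kb against 0.513 ± 0.286 kb (SD, n = 2). H3K27ac peaks covered 6.78 and 9.55 kb in HCT15-Pa and 14.0 and 13.2 kb in HCT15-FR. The log2 change of 0.47 (SE 0.16, limma adjusted p = 0.0935), a 1.39-fold higher share, was at the 94.4 percentile of all windows and did not pass the test. HCT15-Pa replicate 1 had 13 H3K27ac peaks in the window against 22 to 24 in the other libraries. Without it the change was 0.23 (adjusted p = 0.183), and without HCT15-Pa replicate 2 it was 0.72 (adjusted p = 0.0159), so the value turned on which parental library was used. In the gene body H3K27ac covered 4.75 and 6.77 kb in HCT15-Pa and 11.8 and 11.2 kb in HCT15-FR. The share of the gene body alone changed by 0.71 on the log2 scale for H3K27ac (limma adjusted p = 0.0999). For H3K23su this change was 0.37 (limma adjusted p = 0.306), and neither passed the test.

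The peaks of RUNX2 lay mostly downstream of P2, between P2 and the gene's end. Between P1 and P2, all 8 libraries had a peak at the start site of SUPT3H, a gene of the SAGA coactivator complex whose transcription begins inside RUNX2 on the other strand. The H3K27ac region there, chr6:45344908-45346196, ranked at 97.2 and 95.7 in HCT15-Pa and 93.7 and 94.6 in HCT15-FR. This region lies in a RUNX2 intron, and peaks do not show which gene they serve. RUNX2 had 5 FR-only and 3 Pa-only among 48 H3K23su regions and 6 FR-only and 1 Pa-only among 38 H3K27ac regions. All 5 FR-only H3K23su regions were intronic, and 0 coincided with an FR-only H3K27ac one, where 35.8% did genome-wide. The best ranked was at chr6:45629189-45630474, near the gene's end, where peaks covered 1134 and 983 bp in HCT15-FR with percentiles of 50.5 and 69.7. The next were 159.3 kb downstream of P1 at 47.8 and 58.8 and 125.8 kb downstream at 51.1 and 21.6. FR-only H3K27ac regions were led by chr6:45574660-45575912, an intronic region of 1253 bp with percentiles of 79.9 and 63.9, followed by an intronic one 195.9 kb downstream of P1 at 57.9 and 61.1 and one at −152.2 kb from P1, inside SUPT3H, at 65.0 and 54.5. A region at −18.4 kb from P1, also inside SUPT3H, was Pa-only in both marks, chr6:45277823-45278287 for H3K23su at percentiles of 80.7 and 26.5 and chr6:45277838-45278297 for H3K27ac at 14.9 and 40.3. The other Pa-only H3K23su regions of RUNX2 were at −95.8 kb from P1, with percentiles of 37.0 and 13.1, and 117.3 kb downstream, with 3.70 and 51.3. The widest shared H3K23su region of the locus was the one at P2, of 1874 bp. The widest H3K27ac one lay 258.4 kb downstream of P1 at chr6:45554052-45555624 and ranked at 64.8 and 67.3 in HCT15-Pa and 90.5 and 93.3 in HCT15-FR.

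**Figure D5:**
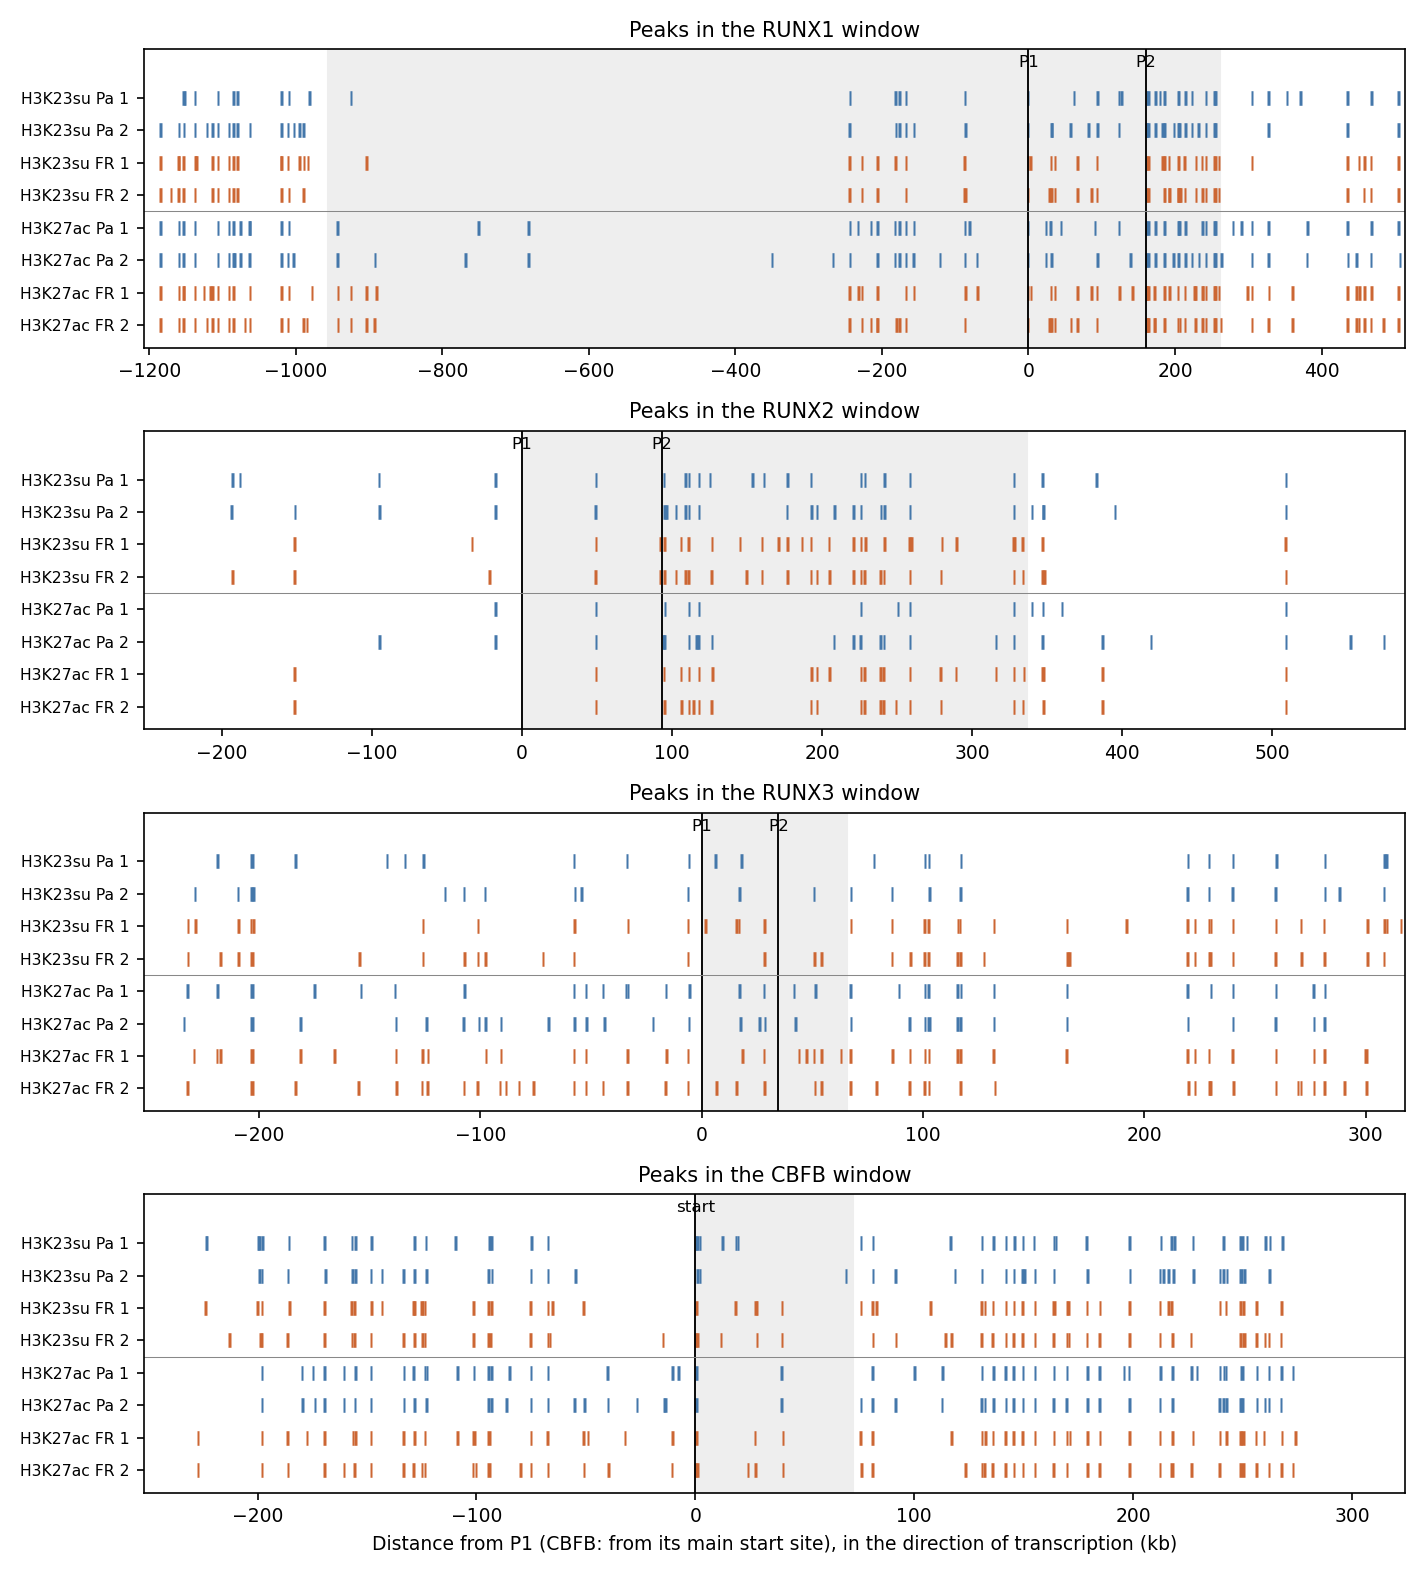
Peaks of each library in the windows of RUNX1, RUNX2, RUNX3 and CBFB (top to bottom) against the distance from P1, or from the main CBFB start, in the direction of transcription (kb). Each row is 1 library, blue for HCT15-Pa and orange for HCT15-FR, ticks are peaks drawn at a minimum width, grey is the gene body and black lines are promoters; ticks cluster downstream of P2 in RUNX1 and RUNX2, and the RUNX3 body holds few.

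At RUNX3, most of the marked sequence lay outside the gene. In the body H3K23su peaks covered 0.478 and 0.503 kb in HCT15-Pa and 1.79 and 1.27 kb in HCT15-FR, from 2 and 2 peaks against 4 and 3. H3K27ac covered 2.14 and 1.29 kb against 2.32 and 2.69 kb there. The share of the body alone changed by 0.77 on the log2 scale for H3K23su (limma adjusted p = 0.0913), which did not pass. Over the whole window H3K23su peaks covered 11.5 and 12.5 kb in HCT15-Pa and 18.00 and 19.96 kb in HCT15-FR (means 12.0 ± 0.734 and 19.0 ± 1.39 kb, SD, n = 2). The log2 change in share was 0.38 (SE 0.11, limma adjusted p = 0.0625), at the 90.5 percentile. The window's H3K27ac lengths were 15.8 and 15.7 kb against 23.8 and 22.8 kb, or 401 and 405 against 514 and 489 bp per Mb of covered length. This share rose by 0.30 on the log2 scale (SE 0.08, 95% interval 0.11 to 0.49, limma adjusted p = 0.0432), a 1.23-fold higher share. The call was lost in 9 of 14 alternatives, among them the replicate block (adjusted p = 0.0580), 100 kb flanks (0.15, adjusted p = 0.392), the gene body alone (0.22, adjusted p = 0.554) and the loss of any 1 library (adjusted p from 0.0878 to 0.212). Over all 14 alternatives the adjusted p ran from 0.0051 to 0.554 and the direction was kept. The window counted from P1, the replicate block and the fit without a filter could not change that direction.

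RUNX3 had 8 FR-only and 0 Pa-only among 56 H3K23su regions, and in 7 of its 11 shared H3K23su regions both HCT15-FR percentiles were above both HCT15-Pa percentiles, with 0 below. For H3K27ac it had 5 FR-only and 1 Pa-only among 70 regions, and 9 of 16 shared regions ranked higher in HCT15-FR with 1 lower. Over all shared regions, 25.4% ranked higher and 18.5% lower for H3K23su, and 26.4% and 25.5% for H3K27ac. The best ranked FR-only H3K23su region, chr1:25126681-25127032, lay inside the neighbouring gene CLIC4, 164.6 kb downstream of P1, at percentiles of 47.2 and 62.3. The next, chr1:24990812-24991195, lay inside SRRM1, a splicing coactivator gene, 2042 bp from its nearest start site, at 76.5 and 44.9. The following one, chr1:25068603-25069297, lay outside both genes, 2923 bp from the nearest start of CLIC4, which encodes an intracellular chloride channel protein, at 43.5 and 33.3. These regions near SRRM1 and CLIC4 were FR-only in H3K27ac as well, at 58.5 and 66.5 and at 75.1 and 73.1 respectively, and were the best ranked FR-only H3K27ac regions of the locus. Another FR-only H3K27ac region was in a RUNX3 intron at chr1:25237500-25237988, with percentiles of 55.2 and 83.1. The 1 Pa-only H3K27ac region, chr1:25274025-25274969, was intronic too, between P1 and P2, at 38.5 and 41.8. Upstream of P1, the widest shared H3K27ac region of the locus lay at −5.8 kb, chr1:25296262-25298305, with percentiles of 8.30 and 70.4 in HCT15-Pa and 42.6 and 43.7 in HCT15-FR. All 4 H3K23su libraries had a peak there too, which was the nearest place to RUNX3 P1 with peaks in all 8 libraries. The widest shared H3K23su region, chr1:25187834-25189783, was 102.7 kb downstream of P1 at 67.1 and 61.7 in HCT15-Pa and 77.6 and 81.2 in HCT15-FR.

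At CBFB, H3K23su peaks covered 22.0 and 20.2 kb in HCT15-Pa and 31.1 and 33.0 kb in HCT15-FR, with a log2 change in share of 0.34 (SE 0.10, limma adjusted p = 0.0656). The H3K27ac lengths were 30.3 and 29.3 kb against 35.2 and 34.8 kb, and the share changed by −0.02 (95% interval −0.20 to 0.16, limma adjusted p = 0.878). That sign turned in 2 alternatives. This window is rich in genes, and the CBFB body had only 3 to 5 H3K23su and 2 to 5 H3K27ac peaks per library. Its lengths in the body were 1.87 and 1.01 kb against 2.15 and 2.96 kb for H3K23su and 1.61 and 1.16 kb against 1.99 and 1.35 kb for H3K27ac. The share of the body alone changed by 0.42 on the log2 scale for H3K23su (limma adjusted p = 0.411). For H3K27ac this change was −0.05 (limma adjusted p = 0.905). CBFB had 8 FR-only and 1 Pa-only among 78 H3K23su regions and 3 FR-only and 1 Pa-only among 76 H3K27ac regions. Of the 8 FR-only H3K23su regions, 5 overlapped a shared H3K27ac region and 0 an FR-only one, so that at these 5 H3K27ac was called in both lines and H3K23su in HCT15-FR only. Among all FR-only H3K23su regions, 17.1% overlapped a shared H3K27ac region and 35.8% an FR-only one. The best ranked were chr16:67246857-67247410, 13280 bp from a start site of ELMO3 (percentiles 74.8 and 54.2), chr16:67232861-67233112, at a start site of ELMO3, an engulfment and cell motility gene (74.0 and 46.2), and chr16:66960951-66961435, 1755 bp from a start of RRAD, a small GTPase gene (46.1 and 69.8). All 3 FR-only H3K27ac regions ranked low, with weaker percentiles of 16.7, 10.3 and 5.10, and 1 of them was at a start of TERB1, a meiotic telomere gene, and another near CA7, a carbonic anhydrase gene. The Pa-only region was the same place in both marks, inside SLC9A5, a sodium and proton exchanger gene: chr16:67303671-67303992 for H3K23su at 49.1 and 92.7 and chr16:67303618-67304005 for H3K27ac at 72.6 and 20.8. The widest shared region of the locus in either mark, of 3402 bp for H3K23su and 2649 bp for H3K27ac, was at a start site of PLEKHG4, a guanine nucleotide exchange factor gene.

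Across the loci, the 31 FR-only H3K23su regions met an FR-only H3K27ac region in 7 cases, 5 in RUNX1 and 2 in RUNX3, and a shared one in 7. Genome-wide these shares were 35.8% and 17.1%, above the 7 of 31 for the former. Of the 68 shared H3K23su regions, 59 lay on a shared H3K27ac one, as did 80.3% genome-wide. The RUNX core was found within 200 bp of the midpoint in 6 of the 31 FR-only H3K23su regions, or 19.4% against 9.59% of all FR-only H3K23su regions, and in 3 of the 68 shared ones, or 4.41% against 6.52%. The AP-1 core, which the Fos and Jun factors bind, was found in 7 of the 31, or 22.6% against 21.0%. In H3K27ac, the RUNX core was in 3 of 26 FR-only regions (11.5% against 10.8%). A match describes the letters and does not show binding.

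The hg19 sequence around the core is shown for FR-only H3K23su regions, the class in which the loci held the RUNX core most often. They are the RUNX core matches outside exons and, for RUNX1 at 65.5 kb, an AP-1 core in a region that was FR-only in both marks. Another AP-1 core in such a region of RUNX1, at −228.6 kb from P1, is not shown. Each stretch has 40 bases on either side of the core, with matches in capitals, and the name gives the distance of the region from P1 or the CBFB start.
RUNX1 190.3 kb (chr21:36231022-36231108, plus strand): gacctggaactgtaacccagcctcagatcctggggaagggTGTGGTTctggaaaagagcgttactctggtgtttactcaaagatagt
RUNX1 65.5 kb (chr21:36356153-36356239, plus strand): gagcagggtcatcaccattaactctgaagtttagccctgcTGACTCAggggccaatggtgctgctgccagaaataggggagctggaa
RUNX3 270.6 kb (chr1:25020919-25021005, plus strand): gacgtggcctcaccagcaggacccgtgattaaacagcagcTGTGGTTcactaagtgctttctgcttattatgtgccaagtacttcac
RUNX3 222.6 kb (chr1:25068955-25069041, plus strand): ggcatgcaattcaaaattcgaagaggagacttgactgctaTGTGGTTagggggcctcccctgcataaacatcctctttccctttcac
RUNX3 -101.4 kb (chr1:25392789-25392875, plus strand): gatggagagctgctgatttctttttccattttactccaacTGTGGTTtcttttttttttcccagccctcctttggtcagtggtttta
CBFB -101.7 kb (chr16:66961141-66961227, plus strand): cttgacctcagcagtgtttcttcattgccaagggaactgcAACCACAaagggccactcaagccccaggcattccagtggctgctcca
The RUNX1 stretch at 190.3 kb belongs to the region at the internal start, the RUNX3 stretch at 222.6 kb to the region near CLIC4 and the CBFB stretch to the region near RRAD. The regions of RUNX3 at 270.6 and −101.4 kb had percentiles of 31.8 and 39.6 and of 25.6 and 28.8 in the HCT15-FR libraries.

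Promoters of partners and regulators of RUNX proteins, a list of 38 genes with corepressors, acetyltransferases, SMAD proteins, kinases and ubiquitin ligases, mostly carried both marks in both lines. For H3K23su, 31 (81.6%) were marked in all 4 libraries, where 57.6% of all protein-coding genes were, 2 (5.26%) were FR-only, where 1.66% were, and 0 were Pa-only, where 1.59% were. The 2 were TLE2 and TLE4, both Groucho corepressors that bind the carboxy terminus of RUNX proteins. For H3K27ac, TLE4 was marked in all 4 libraries and TLE2 in 3, and of the list 34 (89.5%) were marked in all 4 (62.1% of all genes), 0 were FR-only (1.41% of all genes) and 0 Pa-only (2.07% of all genes). DLX5 and TWIST1, known regulators of RUNX2, had no peak within 1 kb in any library of either mark. They were 5.26% of the list, where 30.8% of all genes had no H3K23su peak and 24.3% no H3K27ac peak. Within 2 kb, DLX5 had an H3K27ac peak in some libraries.

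A list of 28 genes known as RUNX targets in bone, blood or epithelia was examined in the same way. For H3K23su, 10 (35.7%) were marked in all 4 libraries, against 57.6% of all protein-coding genes, and 10 (35.7%) had no peak, against 30.8%. The FR-only targets were 0 and the Pa-only targets 4 (14.3%), against 1.66% and 1.59% of all genes. The 4 were SPP1, the secreted phosphoprotein osteopontin, CLDN1, a tight junction protein, CD44, a hyaluronan receptor, and SPI1, a blood transcription factor that is also on the list of blood markers. For H3K27ac, 13 (46.4%) were marked in all 4, against 62.1% of all genes, and 6 (21.4%) had no peak, against 24.3%. There 3 targets (10.7%) were Pa-only, namely SPP1, CLDN1 and CD44, against 2.07% of all genes, and 0 were FR-only, against 1.41%. SPI1 had an H3K27ac peak in both HCT15-Pa libraries and in HCT15-FR replicate 2. Within 2 kb of a start instead of 1 kb, the Pa-only targets were SPP1 and CD44 for H3K23su and again SPP1, CLDN1 and CD44 for H3K27ac. They were then 7.14% of the list for H3K23su, against 1.81% of all genes, and 10.7% for H3K27ac, against 2.03%. COL10A1, a collagen gene of hypertrophic cartilage, had no peak within 1 kb in any library and was FR-only in both marks within 2 kb, the 1 FR-only target of that window. This was 3.57% of the list, against 1.63% of all genes for H3K23su and 1.45% for H3K27ac. Among the 12 colon and epithelial markers, CDX1, an intestinal transcription factor, was FR-only in both marks, and KRT20, an intestinal keratin, in H3K27ac. These were 8.33% of the list for H3K23su and 16.7% for H3K27ac, against 1.66% and 1.41% of all genes. KRT20 had an H3K23su peak in HCT15-FR replicate 1 only. Most of the list, 9 markers for H3K23su and 10 for H3K27ac, was marked in all 4 libraries.

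As a description of likeness, covered length in the gene body was compared over the 8 libraries with 8308 genes that had at least 1000 covered bp on average in each mark. The genes with the most similar pattern were PLEKHG5 (r = 0.989), TSPAN11 and BAIAP2 for RUNX1, CACNB2 (r = 0.985), FBXO34 and MCMBP for RUNX2, GTF2IRD1 (r = 0.990), SLC7A5 and MYO15B for RUNX3, and APOL2 (r = 0.958), GOT2 and BLOC1S6 for CBFB. At r of at least 0.9 there were 334, 221, 280 and 16 genes. The 8 points share the mark and the total length of their lists, which differ between the lines.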

How the data were processed

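CUT&Tag of H3K23su and H3K27ac was run by the authors on HCT15-Pa and HCT15-FR cells. Per the study's methods and the labels, reads were aligned to hg19 with Bowtie2, properly paired, uniquely mapped reads without duplicates were kept with SAMtools, and MACS2 called peaks library by library (broad peaks for H3K27ac). Each deposited list gives positions and the authors' −log10 of the p value. The lists give no counts or read depth, and read totals were not used here, so no value is set against the depth of its library.

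The members and gene lists were chosen with earlier results of these data known. Genes and start sites came from GENCODE 44 mapped to GRCh37, the build of the lists. P1 and P2 were assigned by the start of the translated protein. Peaks of the 4 libraries of a mark were merged where they overlapped or touched, and a library counted as having a region from 1 bp of overlap. For each protein-coding gene's window with at least 1000 covered bp on average, log2(covered bp + 500) minus log2 of the library's covered length was tested with limma (two-sided), with Benjamini-Hochberg adjustment over all windows at 0.05, and fold changes are on that scale. The fit was tested on simulated data.

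Named regions were up to 3 FR-only and 3 Pa-only regions per member and mark with the highest weaker percentile, the widest shared region and every region at a promoter; named list genes were those FR-only or Pa-only; further names (SUPT3H, the internal RUNX1 start, regions behind printed sequences, COL10A1, and unmarked list genes) were added after values were seen. Alternatives were the strongest 50% of peaks, lists cut to one length, one minimum score for all, other windows and pseudocounts, no scaling, no filter, each library left out and a replicate block. Python 3.11.15, numpy 2.4.6, pandas 2.3.3, pysam 0.24.0, samtools 1.23.1, matplotlib 3.10.9, R 4.3.3 and limma 3.58.1 were used.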

Additional observations from a re-analysis of the deposited data

How the results depend on the processing

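Of 112 alternative fits of covered length (14 for each member and mark), 89 kept the direction and the side of the 0.05 threshold. Another 11 newly passed, 9 no longer passed and 3 changed sign. Some of these fits could not differ. At RUNX2, RUNX3 and CBFB the window counted from P1 or the main start was nearly the main window and gave the same result. The replicate block and the fit without a filter return the main log2 change by construction, so only their p values could move. Values below are log2 changes, and the cause of each difference was not tested. Without scaling to the library's covered length, which by its construction adds the longer HCT15-FR lists, H3K23su passed at RUNX1 (0.61), RUNX2 (0.44), RUNX3 (0.64) and CBFB (0.59), H3K27ac passed at RUNX1 (0.30) and RUNX2 (0.72), and H3K27ac at CBFB turned to 0.23. With the stronger 50% of each list, H3K23su at RUNX1 (0.61) and H3K27ac at RUNX2 (0.49) passed, H3K27ac at RUNX3 (0.27) did not, and H3K27ac at CBFB turned to 0.0715. With a pseudocount of 2000 bp, H3K23su passed at RUNX3 (0.33) and CBFB (0.30). The H3K27ac call of RUNX3 was also lost with equal list lengths (0.29), the gene body alone (0.22), 100 kb flanks (0.15) and the replicate block (0.30, adjusted p = 0.0580), and without any 1 library (0.27 to 0.34). Leaving out 1 library gave −0.0014 to 0.11 for H3K27ac at RUNX1, with the sign turned without HCT15-Pa replicate 1, and 0.23 to 0.72 at RUNX2, with the test passed without HCT15-Pa replicate 2. An arm then has 1 library, which is assumed to vary like the others. Same-numbered libraries did not deviate together in covered length (correlation 0.006 in both marks). This cannot show whether they were paired in the experiment, since a pairing need not leave a shared deviation. The replicate block moved the windows that passed as higher and lower from 1449 and 1677 to 1344 and 1633 for H3K23su. For H3K27ac it moved them from 1796 and 2273 to 1894 and 2408, and it changed no other call of a member.

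Over all windows, H3K23su passed as higher and lower in 678 and 783 with the stronger 50%, 640 and 946 with 100 kb flanks, 139 and 167 with the gene body alone and 1769 and 2607 with the larger pseudocount. H3K27ac passed in 1060 and 1461 with 100 kb flanks and in 273 and 201 with the gene body alone. Without 1 library, 416 to 897 H3K23su windows and 526 to 1340 H3K27ac windows passed as higher.

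The stronger 50% of each list left 16 FR-only and 1 Pa-only H3K23su regions and 15 FR-only H3K27ac regions in the 4 loci, and 100 kb flanks left 20 and 17 FR-only regions for H3K23su and H3K27ac. Leaving out 1 library, so that 1 list decides for its line, gave 38 to 63 FR-only and 9 to 38 Pa-only regions for H3K23su and 34 to 63 and 14 to 48 for H3K27ac. A peak from 1 kb upstream to 100 bp downstream of the start was found at RUNX2 P2 in 2 libraries of each mark.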
